A study of Mus musculus with 4 samples.

Results

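The natural killer (NK) lectin-like receptors were described here as 7 genes of mouse CD8+ T cells, *Klrk1*, *Klrd1*, *Klrc1*, *Klrc2*, *Klrg1*, *Klrb1c* and *Klre1*, taken by their symbols from the 17559 genes listed in the deposited files. All 7 were listed in every library, and all 7 passed the filter on low counts that left 12943 genes for testing. RNA-seq was performed on OT-I CD8+ T cells of the C57BL/6 strain, from tissue labelled LN, in 2 groups of 2 libraries. Cells of the NaBu group received NaBu (commonly sodium butyrate, a histone deacetylase inhibitor) at 1 mM over 12 h, and those of the control group only the control treatment. Both groups share the OT-I genotype, a transgenic T cell receptor that recognises a peptide of ovalbumin. Before treatment all cells were enriched with magnetic beads that remove other cells (purity over 95%). They then spent 2 d on wells coated with antibodies to CD3 (1 µg/ml) and CD28 (2 µg/ml), with IL-2 at 10 ng/ml, and a further 2 d with IL-2 but no antibody. They are thus cultured cells labelled as carrying 1 transgenic receptor, measured in bulk. The labels leave unsaid if both libraries of a group are separate cultures or mice. The p-values therefore reflect the spread between these samples alone, which may be technical.

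These receptors are type II membrane proteins with a C-type lectin-like domain, encoded mostly in one gene cluster and best known from NK cells, where the balance of activating and inhibitory members sets the response to a target cell. Activated CD8+ T cells also come to express several of them. The CD94 chain (*Klrd1*) pairs with an NKG2 chain: with NKG2A (*Klrc1*), which carries inhibitory tyrosine motifs, or with NKG2C or NKG2E (*Klrc2*, *Klrc3*), which signal through an adaptor and are activating. NKG2D (*Klrk1*) is an activating receptor for stress-induced ligands, and KLRG1 an inhibitory receptor for cadherins.

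Library depth was even, with 19859649 and 19857701 expected counts in the NaBu libraries and 20344399 and 20548571 in the controls. The markers of the labelled cell type were present, with *Cd8a* at 93.9 and 97.0 FPKM in NaBu against 118 and 116 in control, *Cd8b1* at 155 and 155 against 218 and 215, and *Cd3e* at 298 and 293 against 308 and 311. Of the 8 genes of the T cell and CD8 list, all tested, 1 rose and 6 fell. The 1 that rose was *Cd3g*, at 557 and 554.5 FPKM in NaBu against 407 and 375 in control. Over all genes tested 68.6% passed the edgeR test at an adjusted p under 0.05, 34.5% higher and 34.1% lower. Counts of each marker list in this paragraph are to be read against those shares. FPKM is a level per transcript length and library size, and all FPKM values are the authors'. Of the NK cell and innate lymphoid marker list, 12 of 15 genes were listed in the files, and 8 reached an FPKM of 1 in a library. *Ncr1*, which encodes NKp46 and marks NK cells, had 0 counts in both NaBu libraries and 5 counts over the controls. A count of 0 allows for up to 3 counts, and *Ncr1* was not above 0.1 FPKM in any library. The summed FPKM of the 12 genes was 248 and 244 in NaBu and 72.2 and 69.3 in control. Most of it was *Irf8*, which T cells also express, at 225 and 220 against 41.5 and 37.9. Without it the sum over 11 genes was 22.8 and 23.4 in NaBu and 30.7 and 31.5 in control. Most of that difference was *Khdc1a*, at 1.88 and 2.34 FPKM in NaBu against 8.47 and 7.65 in control. Of the 9 tested genes of the list 2 rose, *Irf8* and *Sh2d1b1*, and 3 fell, *Khdc1a*, *Klrb1f* and *Il1rl1*. Of the markers of other cells, the myeloid and dendritic list (8 of 10 genes listed, 5 at an FPKM of 1 or more) summed to 40.5 and 38.4 FPKM in NaBu against 16.6 and 15.0 in control. Of its 5 tested genes 4 rose and 1 fell. *Itgam* was at 4.83 and 3.79 FPKM in NaBu against 0.45 and 0.45 in control (log2 fold change 3.16, adjusted p = 7.45e-08 by edgeR), and *Cd68* at 28.4 and 27.1 against 11.4 and 9.59. *Mpeg1* and *Itgax* rose and *Xcr1* fell, with log2 fold changes of 2.59, 0.84 and -1.44, while *Adgre1* was at 0.02 FPKM or below in every library and *Cd14* at 0.21 or below. The CD4+ T list summed to 0.89 and 0.89 FPKM in NaBu against 0.26 and 0.15 in control. Its *Cd4* rose to 0.66 and 0.65 FPKM against 0.02 and 0.03, on 81.3 counts over the NaBu libraries and 3 over the controls. The gamma-delta list summed to 0.31 and 0.36 FPKM in NaBu and 0.39 and 0.6 in control. Of the B cell markers, *Cd79b* fell to 2.43 and 1.88 FPKM in NaBu against 5.45 and 3.86 in control, and *Cd22* rose to 0.68 and 0.59 against 0.35 and 0.25. *Zbtb16*, a factor of NKT cells, was at 0.11 FPKM or below in every library. Its list of 2 genes, with *Mr1* as the other, summed to 15.8 and 15.2 FPKM in NaBu against 7.21 and 7.24 in control. Nearly all of that was *Mr1*, at 15.7 and 15.1 FPKM against 7.11 and 7.19. The sum thus follows 1 gene and does not measure NKT cells. The part of such cells in the results was not tested beyond these values.

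The change with NaBu went in both directions within the receptor set. *Klrc1* and *Klrc2* rose, *Klrg1*, *Klrb1c*, *Klre1* and *Klrd1* fell, and *Klrk1* did not pass the test. Thus 6 of 7 genes, 2 higher and 4 lower, passed the quasi-likelihood test of edgeR (Benjamini-Hochberg adjusted p under 0.05). Over all genes tested 68.6% passed, 34.5% higher and 34.1% lower, so most genes passed whether or not they encode receptors. In a bulk sample, fewer cells with a transcript and less of it per cell cannot be told apart, which applies to each gene here. The median log2 fold change of the 7 was -0.31, against 0.005 over all genes, and the median absolute log2 fold change 0.52 against 0.46. On library totals in place of TMM scaling, a shift of all genes to a median of 0.10, 3 receptor genes were higher and 3 lower, since *Klrk1* then passed and *Klre1* did not. The FPKM values of NaBu and control did not overlap for any of the 7, with 3 higher and 4 lower in NaBu. Of all genes tested 84.0% did not overlap, 48.0% higher and 35.9% lower in NaBu.

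Levels spanned a wide range. In NaBu the order was *Klrd1*, *Klrk1*, *Klrc1*, *Klrc2*, *Klrb1c*, *Klre1*, *Klrg1*, with means ± SD over the libraries (n = 2) of 97.4 ± 2.74, 46.2 ± 0.622, 33.2 ± 0.919, 6.39 ± 0.0283, 5.26 ± 0.445, 3.72 ± 0.396 and 0.645 ± 0.134 FPKM. In control the order was *Klrd1*, *Klrk1*, *Klrc1*, *Klrb1c*, *Klre1*, *Klrc2*, *Klrg1*. *Klrc2* thus stood above *Klrb1c* and *Klre1* in NaBu and below both in control. The place of *Klrc2* against *Klrb1c* depends on transcript length, for which RSEM gave 711 to 715 bases and 2638 to 2639 bases. By expected counts *Klrc2* stood below *Klrb1c* in NaBu too, at 87.8 and 87.3 against 260 and 293. Against *Klre1*, with 62 and 72 counts in NaBu and 82 and 103 in control, its place changed by counts as well. No neighbours in either FPKM order shared a range between their libraries. The closest were *Klrc2* and *Klrb1c* in NaBu, where the lower *Klrc2* library had 6.37 FPKM and the higher *Klrb1c* library 5.57, and *Klre1* and *Klrc2* in control, at 4.44 and 3.96. The sum of the 7 genes was 191 and 194 FPKM in NaBu and 184 and 208 in control, which overlapped. Within that sum *Klrd1* held 49.9% and 51.2% in NaBu against 56.3% and 59.0% in control, and *Klrc1* 17.7% and 16.8% against 12.2% and 10.9%.

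**Figure D1:**
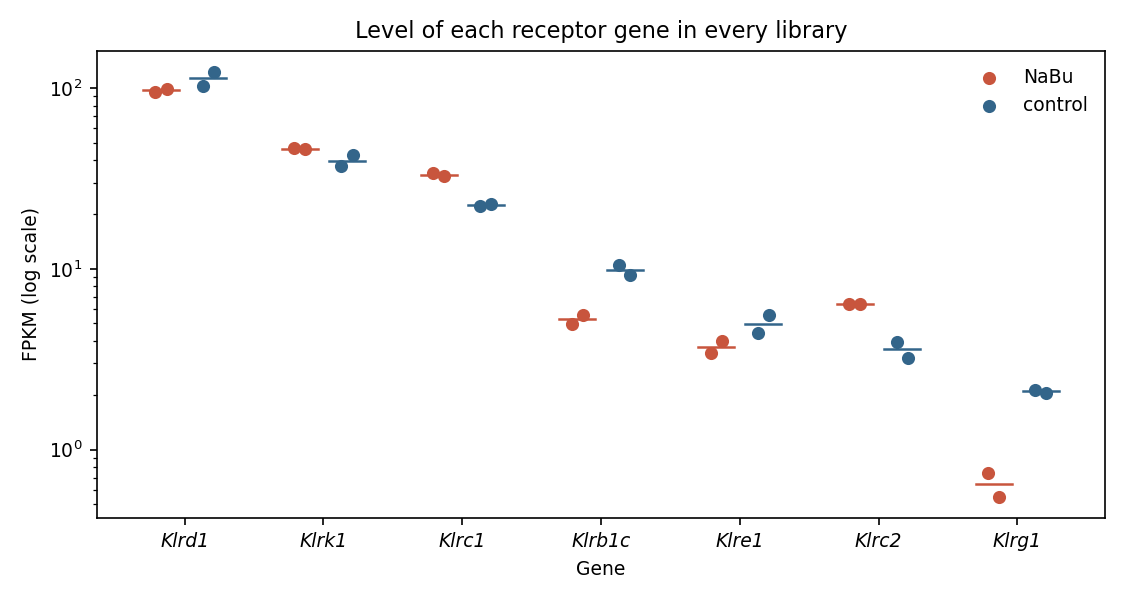
FPKM of each receptor gene on a log axis, with 1 point per library and a line at the group mean, NaBu in red and control in blue, genes ordered by their control mean. *Klrd1* is highest, near 100 FPKM, and *Klrg1* lowest, at 0.55 to 0.74 FPKM in NaBu and 2.07 to 2.13 in control.

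The sequences upstream of 4 genes are shown so that those of the 3 genes that rose, *Klrc1*, *Klrc2* and *Klrc3*, can be read beside that of *Klrb1c*, which fell. No link between sequence and change was tested. Each window runs from 250 bases before to 50 bases after an annotated start (RefSeq, GRCm38.p6, all on the minus strand and written 5′ to 3′ of the gene). Capitals mark the Runx core TGTGGT or its complement ACCACA. The windows are *Klrc1* at chr6:129678924-129679223, *Klrc2* at chr6:129660507-129660806, *Klrc3* at chr6:129643239-129643538 and *Klrb1c* at chr6:128788592-128788891.
Klrc1: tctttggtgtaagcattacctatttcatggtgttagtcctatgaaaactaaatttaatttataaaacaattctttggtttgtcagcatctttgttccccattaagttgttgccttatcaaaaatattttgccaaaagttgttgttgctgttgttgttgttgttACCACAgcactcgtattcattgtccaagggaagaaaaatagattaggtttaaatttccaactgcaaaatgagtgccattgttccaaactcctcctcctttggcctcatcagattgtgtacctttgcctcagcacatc
Klrc2: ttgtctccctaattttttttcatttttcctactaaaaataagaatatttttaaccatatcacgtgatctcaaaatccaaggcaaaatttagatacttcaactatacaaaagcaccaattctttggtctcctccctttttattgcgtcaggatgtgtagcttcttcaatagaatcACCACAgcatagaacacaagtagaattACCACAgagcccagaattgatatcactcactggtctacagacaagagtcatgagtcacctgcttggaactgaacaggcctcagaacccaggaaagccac
Klrc3: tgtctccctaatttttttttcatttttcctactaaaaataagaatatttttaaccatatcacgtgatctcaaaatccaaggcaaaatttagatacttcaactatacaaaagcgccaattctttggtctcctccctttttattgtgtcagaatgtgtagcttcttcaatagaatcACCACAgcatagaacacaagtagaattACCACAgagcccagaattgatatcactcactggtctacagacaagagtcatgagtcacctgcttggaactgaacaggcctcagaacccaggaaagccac
Klrb1c: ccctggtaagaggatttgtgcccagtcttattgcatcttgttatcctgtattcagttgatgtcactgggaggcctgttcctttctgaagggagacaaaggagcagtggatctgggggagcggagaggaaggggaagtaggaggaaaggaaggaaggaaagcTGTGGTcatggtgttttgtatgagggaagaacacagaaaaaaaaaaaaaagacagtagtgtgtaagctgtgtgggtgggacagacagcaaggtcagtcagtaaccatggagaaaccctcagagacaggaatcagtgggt

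The *Klrc2* and *Klrc3* windows were identical at 296 of 300 aligned bases (98.7%), including both ACCACA copies, whose first bases lie at -76 and -49 from the start. *Klrc1* and *Klrc2* shared only a local stretch, with 39 of 60 aligned bases identical and a longest exact run of 12 bases. RefSeq windows were found for 5 of the 7 members, and the Runx core, searched on both strands, was in at least 1 window of each of the 5, including *Klrk1* and *Klre1*. It was in 16.8% of the 32851 windows of the same length in the table, a share of windows and not of genes. *Klrc2* and *Klre1* have 2 windows each, and the second *Klre1* window held no Runx core. The T-box core GGTGTG was in no window of the 5 members (19.0% of all windows). The AP-1 motif TGANTCA, which is its own complement, was in windows of 2 members, *Klrc2* and *Klrk1*, and in that of *Klrc3* (7.81% of all windows). The motifs were chosen after the sequences were seen, and a match is a description of the letters only.

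*Klrc1* (gene 16641, mm10 chromosome 6, 129666015 to 129682852) encodes the inhibitory chain NKG2A. It had 33.8 and 32.5 FPKM in the NaBu libraries, against 22.4 and 22.7 in the controls. Both NaBu libraries lay above both controls. The expected counts behind these levels were 1325.5 and 1272.1 in NaBu and 900.85 and 923.03 in control. The gene rose 1.37-fold (log2 fold change 0.46 ± 0.07, SE; edgeR adjusted p = 0.00014). Tested by glmTreat against a fold of 1.5, the rise did not pass (adjusted p = 1.0; 4.95e-07 to 1.0 over its alternatives).

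*Klrc2* (gene 16642, chromosome 6, 129649602 to 129660737), for the activating chain NKG2C, had 6.41 and 6.37 FPKM in NaBu against 3.96 and 3.23 in control. Its counts were low, 87.8 and 87.3 against 55.4 and 45.6. The NaBu libraries were nearly equal and stood above both controls. It rose 1.67-fold (log2 fold change 0.74 ± 0.19, adjusted p = 0.00553 by edgeR), and DESeq2 gave an adjusted p of 0.0784 for the same direction (0.000997 to 0.239 over the alternatives for the gene itself). *Klrc3*, the neighbouring gene of NKG2E and not one of the 7, had 2.73 and 2.01 FPKM in NaBu against 0.75 and 1.17 in control. It rose too, with a log2 fold change of 1.22 ± 0.35 and an edgeR adjusted p of 0.00951, on 60.3 counts over the NaBu libraries and 25.1 over the controls.

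Reads of these 3 genes can be hard to place, since RSEM divides a read that matches several genes between them. The longest GENCODE transcripts of *Klrc1* and *Klrc2* were identical at 85.0% of 1939 aligned positions and shared an exact stretch of 202 bases, and *Klrc2* shared one of 203 bases with *Klrc3*. The GENCODE transcript of *Klrc2* has 2811 bases, whereas RSEM gave the gene a mean length of 711 to 715 bases, so the models behind the deposited counts were shorter than the one aligned. Their counts were therefore also summed into 1 feature, which does not depend on how reads were divided among them. The sum was 1448 and 1385.01 counts in NaBu and 966 and 984 in control. It rose 1.40-fold (log2 fold change 0.48 ± 0.07, edgeR adjusted p = 7.7e-05). Most of these counts were those of *Klrc1*, so the sum largely repeats its value, and the share of the rise that belonged to *Klrc2* or *Klrc3* is less certain.

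*Klrd1* (gene 16643, chromosome 6, 129588092 to 129598775), for CD94, the chain that every NKG2A, NKG2C and NKG2E receptor needs, had 95.5 and 99.4 FPKM in NaBu against 103 and 123 in control. Both NaBu libraries lay below both controls, but the controls differed from each other by more than the groups' nearest libraries did. *Klrd1* fell by 0.31 ± 0.08 on the log2 scale, a 1.24-fold change (edgeR adjusted p = 0.0062). Without control 2 it fell by 0.19, with the lone control assumed to vary like the NaBu libraries. The call was lost at a similar log2 fold change without NaBu 1 (-0.28) and without NaBu 2 (-0.34). There the lone NaBu library is assumed to vary like the controls. Over genes, the controls differed more from each other than the NaBu libraries did (chi-square per degree of freedom 7.27 against 2.77). The call of *Klrd1* was also lost with limma on log2(FPKM + 1) (-0.21, adjusted p = 0.0765).

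Transcripts of the NKG2 chains and of CD94 therefore changed in opposite directions, which brought their levels closer. The summed FPKM of *Klrc1*, *Klrc2* and *Klrc3* over that of *Klrd1* was 0.45 and 0.412 in NaBu, against 0.262 and 0.221 in control. For *Klrc1* alone the ratio was 0.354 and 0.327 against 0.216 and 0.185. The groups did not overlap in either ratio, and *Klrd1* remained above the NKG2 sum in every library. The ratios were not tested and are a description. An exact permutation test of 2 against 2 libraries allows no two-sided p under 0.333. The ratio of inhibitory *Klrc1* to activating *Klrc2* was 5.28 and 5.11 in NaBu and 5.65 and 7.03 in control, both NaBu values below both controls, but it rests on the low counts of *Klrc2*.

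**Figure D2:**
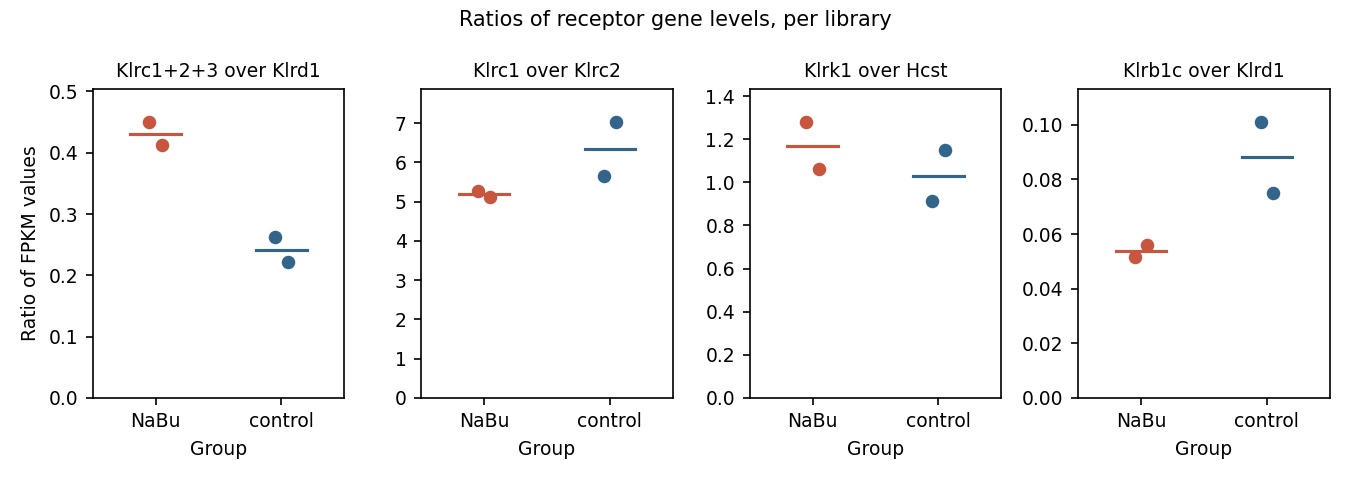
Ratios of FPKM values per library, NaBu at left and control at right in each panel, with a line at the group mean and each axis starting at 0. The NKG2 chains over *Klrd1* are at 0.412 to 0.45 in NaBu and 0.221 to 0.262 in control, whereas *Klrk1* over *Hcst* overlaps between the groups.

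*Klrk1* (gene 27007, chromosome 6, 129610323 to 129623903), for NKG2D, had 46.6 and 45.8 FPKM in NaBu against 36.9 and 42.4 in control. The NaBu libraries were alike and the controls apart, with control 2 close to NaBu. It did not pass the test (log2 fold change 0.10 ± 0.07, edgeR adjusted p = 0.22). The value depended on which control was used. Without control 2 it was 0.20 (adjusted p = 0.00991) and without control 1 it was 0.0031 (adjusted p = 0.961), each with a lone control assumed to vary like the NaBu libraries. It also passed on library totals (0.20, adjusted p = 0.0279; 0.00991 to 1.0 over its alternatives). The mean transcript length that RSEM gave for *Klrk1*, which weights the 3 RefSeq transcripts listed for the gene, was 3188 and 3187 bases in NaBu and 3228 and 3226 in control. The groups did not overlap in that length, and no test was made of it. Of the adaptors of NKG2D, *Hcst*, encoding DAP10, had 36.5 and 43.3 FPKM in NaBu against 40.4 and 36.9 in control and did not pass (log2 fold change -0.05 ± 0.11, adjusted p = 0.698 by edgeR). *Tyrobp*, encoding DAP12, which NKG2C and NKG2E also use, was low, at 1.80 and 1.71 FPKM against 1.14 and 0.87, and did not pass (log2 fold change 0.70 ± 0.35, adjusted p = 0.102 by edgeR). *Klrk1* over *Hcst* was 1.28 and 1.06 in NaBu and 0.913 and 1.15 in control.

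*Klrg1* (gene 50928, chromosome 6, 122270596 to 122282833), for an inhibitory receptor that marks terminal effector cells, had 0.74 and 0.55 FPKM in NaBu against 2.13 and 2.07 in control. These levels stood on 20 and 15 counts in NaBu and 59 and 58 in control. The 2 groups were well apart, with the higher NaBu library below the lower control. It fell by 1.79 ± 0.27 on the log2 scale, 3.45-fold, the largest change among the 7 (edgeR adjusted p = 0.000148). Leaving out a library gave log2 fold changes between -2.01 and -1.60, with 1 group then left with a lone library. On the log2(FPKM + 1) scale, which understates changes of low genes, the fall was the smallest of its alternatives, at 0.92.

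*Klrb1c* (gene 17059, chromosome 6, 128778485 to 128788641) encodes NK1.1, the activating receptor NKR-P1C by which C57BL/6 NK cells are recognised, and signals through the Fc receptor gamma chain. It had 4.94 and 5.57 FPKM in NaBu against 10.5 and 9.24 in control, with counts of 260 and 293 against 564 and 503. Both NaBu libraries were near 5 and both controls near 10. Relative to *Klrd1*, the ratio of FPKM values was 0.0517 and 0.0561 in NaBu against 0.101 and 0.0752 in control. It fell by 1.00 ± 0.10 on the log2 scale, 2.00-fold (edgeR adjusted p = 8.91e-06). The direction and the call held under each of the 15 alternatives that gave it a value. *Klrb1c* shares an exact stretch of 108 bases with *Klrb1a* and of 89 bases with *Klrb1b*, which were at 0.13 FPKM or below in every library. The span of a further GENCODE gene model, *Gm44511*, overlaps that of *Klrb1c* on the same strand over 8931 bases, introns included. How reads there were assigned is unknown. *Fcer1g*, the gamma chain gene, had 13.9 and 14.5 FPKM in NaBu against 14.4 and 16.5 in control and did not pass (log2 fold change -0.22 ± 0.12, adjusted p = 0.127 by edgeR).

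*Klre1* (gene 243655, chromosome 6, 129559365 to 129585828), whose product pairs with KLRI1 or KLRI2, had 3.44 and 4.00 FPKM in NaBu against 4.44 and 5.53 in control. The groups did not overlap, but NaBu 2 and control 1 were closer to each other than the 2 controls were. It fell by 0.52 ± 0.19 on the log2 scale, 1.43-fold (edgeR adjusted p = 0.0311), on 62 to 103 counts per library. The call was lost without control 2 (a fall of 0.36), without NaBu 1 (log2 fold change -0.42) and without NaBu 2 (-0.63). Each of these fits has 1 lone library, assumed to vary like those of the other group. *Klre1* also lost its call with DESeq2 (-0.52, adjusted p = 0.201). Of its partners, *Klri2* was at 0.81 and 0.86 FPKM in NaBu and 0.69 and 0.53 in control and did not pass (adjusted p = 0.168 by edgeR). *Klri1* had 0 counts in 3 libraries and 1 count in control 2.

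**Figure D3:**
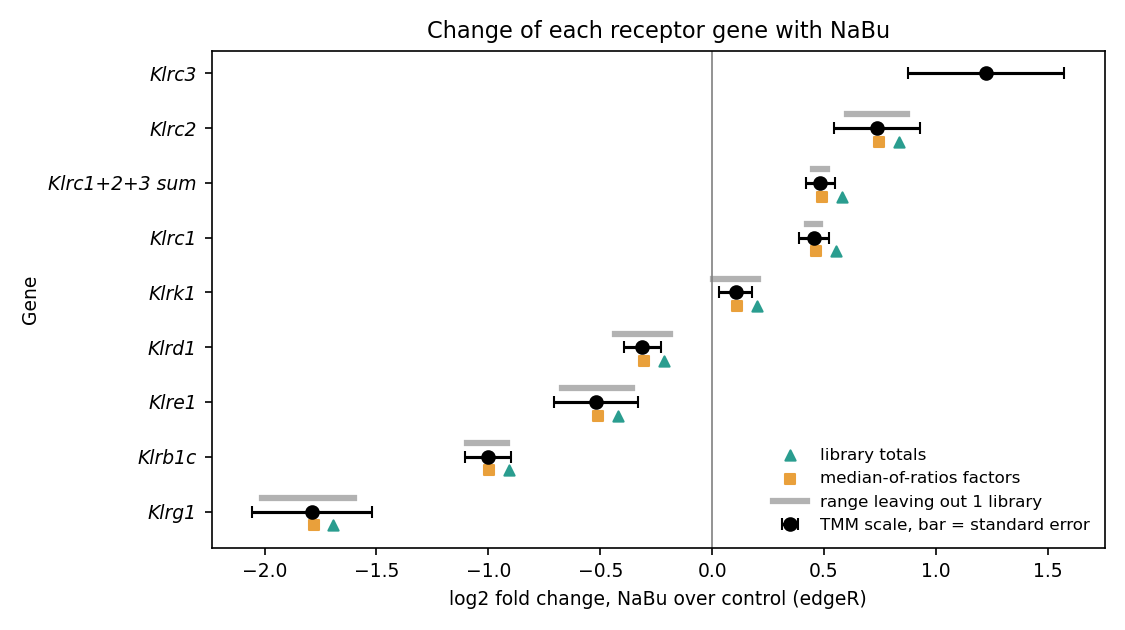
log2 fold changes of NaBu over control from edgeR for the 7 genes, *Klrc3* and the summed NKG2 genes, with bars for the standard error, a grey bar for the range when 1 library is left out, and markers for other scalings (range and other scalings not drawn for *Klrc3*). *Klrg1* is at -1.79 and *Klrc2* at 0.74, and *Klrk1* at 0.10 has a grey bar from 0.0031 to 0.20.

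Of the 7 genes, 6 lie within 904 kb of chromosome 6, between the first base of *Klrb1c* and the last of *Klrc1*, and *Klrg1* lies 6.5 Mb away. RefSeq places 41 genes in that interval, 25 of them were listed in the files and 18 were tested, 6 higher and 6 lower, beside 68.6% of all genes tested that passed. Higher and lower genes were interspersed along it. *Klre1* and *Klrd1*, 2264 bases apart on the plus strand, both fell, *Klrk1* next to them on the minus strand did not pass, and *Klrc3*, *Klrc2* and *Klrc1* beyond it, also on the minus strand, all rose. On the other side of *Klre1*, *Gabarapl1*, an autophagy gene, rose with a log2 fold change of 0.75 (53.3 and 54.7 FPKM in NaBu, 29.7 and 30.2 in control). *Cd69*, encoding an early activation antigen of the same lectin family, rose to 199 and 166 FPKM in NaBu against 48.0 and 53.8 in control. The largest change in the interval was that of *BC035044*, at 0.50 and 0.33 FPKM in NaBu against 7.10 and 7.72 in control (log2 fold change -4.26 ± 0.17, adjusted p = 1.37e-08 by edgeR). Its span overlaps that of *Clec2i* on the opposite strand over 3539 bases, introns included, and whether the libraries keep strand is unstated here. Without strand, reads from exons that overlap cannot be told apart. The lncRNA genes *BC064078* (3.25 and 2.75 FPKM in NaBu, 3.33 and 3.85 in control) and *2310001H17Rik* (3.88 and 4.33 against 3.35 and 3.67) did not pass. The protein-coding neighbour of *Klrg1* that was expressed, *M6pr*, had 123 and 121 FPKM in NaBu against 111 and 115 in control and did not pass (adjusted p = 0.862 by edgeR).

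**Figure D4:**
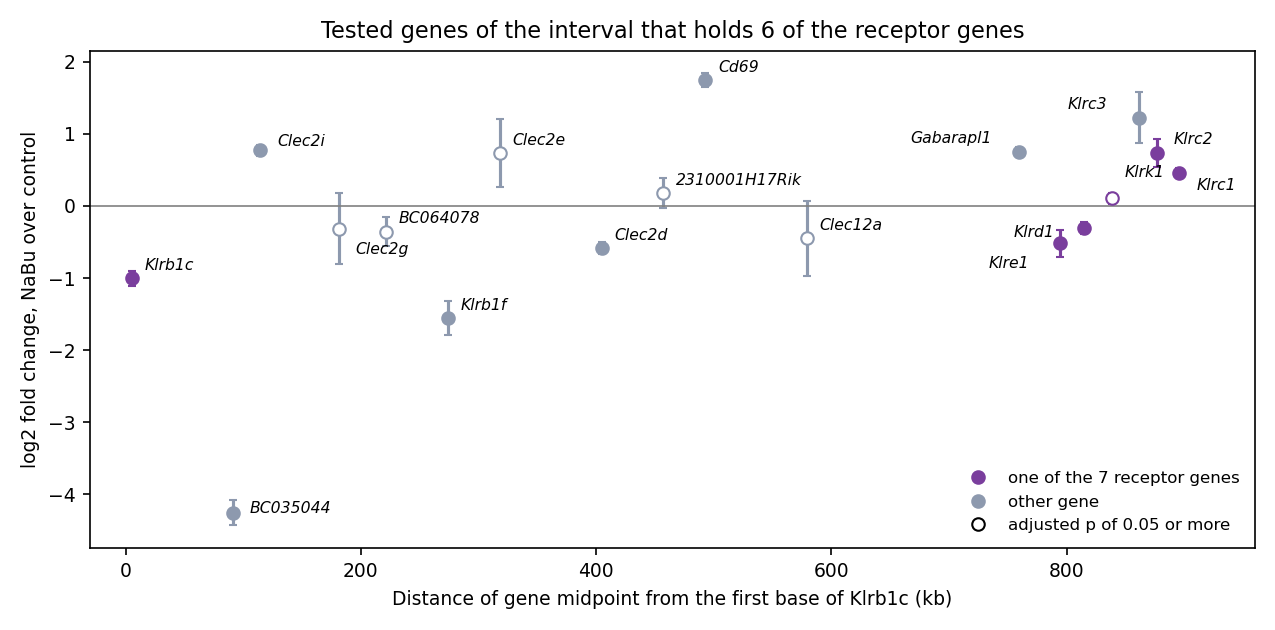
log2 fold change with standard error of the 18 tested genes of the interval against the distance of the gene's midpoint from the first base of *Klrb1c* in kb, with the receptor genes in purple and genes that did not pass drawn open. *Klre1* and *Klrd1* lie below 0 and *Klrc3*, *Klrc2* and *Klrc1*, at the right end, above 0.

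Among 31 other lectin-like receptor genes 16 were tested, of which 6 rose and 5 fell (median log2 fold change 0.15). *Clec2l* rose to 2.91 and 2.56 FPKM in NaBu against 0.69 and 0.27 in control, and *Cd69* is given above. *Klra13-ps*, a pseudogene of the Ly49 family, fell to 1.47 and 1.09 FPKM against 3.65 and 3.56, and *Klrb1f*, a relative of *Klrb1c* encoding NKR-P1F, to 0.81 and 0.68 against 1.94 and 2.19 (log2 fold changes -1.60 and -1.56, edgeR adjusted p = 0.000293 and 0.000175). The Ly49 genes are related to each other, so RSEM may have divided reads between them, and their counts are uncertain to that extent. How alike their transcripts are was not measured here.

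Of 27 adaptor and proximal signalling genes, all tested, 7 rose and 8 fell with a median of 0.10, and 13 rose and 7 fell on library totals. *Sh2d1a*, encoding the adaptor SAP, fell to 13.4 and 12.4 FPKM in NaBu against 40.2 and 40.8 in control, and *Cd247*, the zeta chain of the T cell receptor complex, to 50.3 and 53.4 against 114 and 111. *Plcg2*, a phospholipase gene, rose to 36.2 and 34.4 FPKM against 15.2 and 15.0. *Sh2d1b1*, encoding the SAP relative EAT-2, rose to 1.2 and 0.99 FPKM against 0.62 and 0.51, on 62 and 33 counts per group (adjusted p = 0.0307 by edgeR).

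The ligands of these receptors were measured in the same cells. Of 16 listed ligand genes 11 were tested, 6 rose and 2 fell, with a median of 0.49. The NKG2D ligands moved in both directions: *H60b* rose to 4.94 and 4.2 FPKM in NaBu against 0.78 and 0.70 in control, while *Ulbp1*, for MULT1, fell to 10.2 and 10.1 against 27.0 and 26.3. *Cdh1*, encoding E-cadherin, a ligand of KLRG1, rose to 15.7 and 15.1 FPKM against 7.65 and 6.23, with a log2 fold change of 1.05 ± 0.09 (edgeR adjusted p = 2.96e-06), whereas *Klrg1* itself fell. *H2-T23*, whose product Qa-1 presents peptides to the CD94 and NKG2 receptors, had 160 and 166 FPKM in NaBu against 160 and 157 in control and did not pass (adjusted p = 0.392 by edgeR). *Clec2i*, for a ligand of NKR-P1F, rose to 31.2 and 28.6 FPKM against 17.1 and 15.6.

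Of 19 tested transcription factors (of 20 listed) known to act on NK receptor genes or NK-like programmes, 11 rose and 3 fell, with a median of 0.33. *Prdm1*, *Foxo1*, *Tbx21* and *Runx3* rose most among those at 1 FPKM or more, with log2 fold changes of 1.62, 1.56, 1.11 and 0.83. *Runx3*, a factor of the CD8 lineage, had 107 and 121 FPKM in NaBu against 62.0 and 58.6 in control. Of 10 cytokine receptor chains 6 rose and 2 fell. *Il21r* rose to 133 and 132 FPKM against 63.3 and 58.8, *Il12rb2* and *Il12rb1* had log2 fold changes of 0.89 and 0.75, and *Il18r1* fell by 0.82 on that scale. Counts of these 5 lists are to be read against the 68.6% of all genes that passed.

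**Figure D5:**
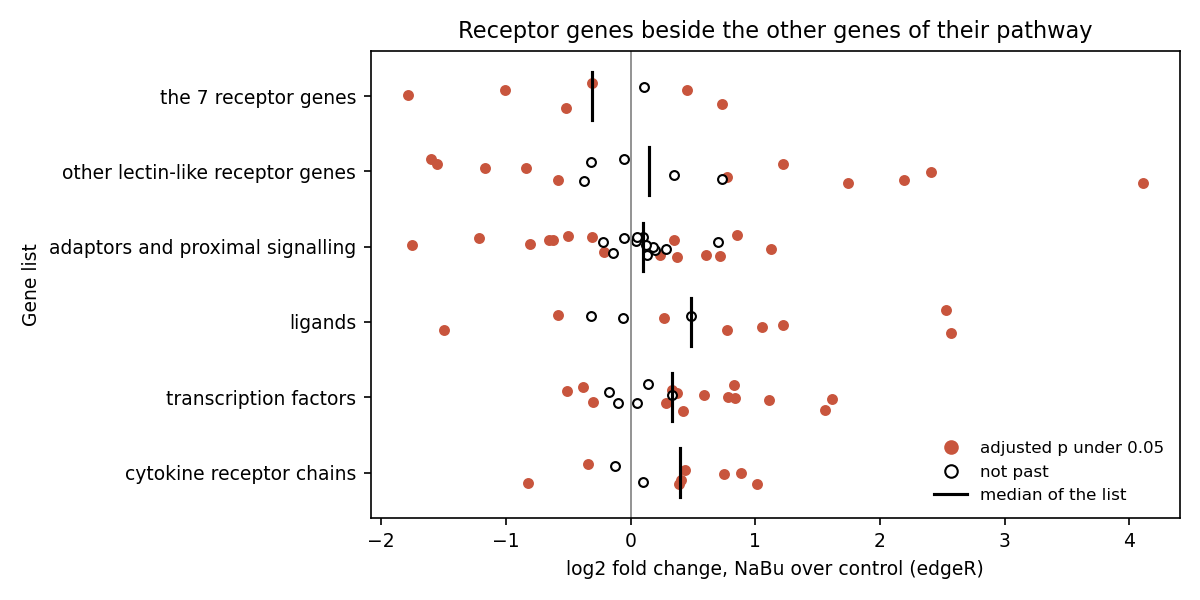
log2 fold change of each tested gene of the receptor set and of the 5 other lists, filled where the edgeR adjusted p was under 0.05 and open elsewhere, with a line at each list's median. The 7 receptor genes have a median of -0.31, and the lists medians between 0.10 and 0.49.

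Genes whose pattern over the 4 libraries was most like that of *Klrd1* and *Klrk1*, the most abundant members, were sought among 9836 genes at 1 FPKM or more in every library, by the Euclidean distance between log2(FPKM + 1) values centred on each gene's mean. *Tfb1m*, *Adal* and *Fam136a* lay nearest to *Klrd1*, at distances of 0.0287, 0.0295 and 0.0298, and 125 genes lay within 0.1. *Usp31*, *Nus1* and *Tmem30a* lay nearest to *Klrk1*, at 0.0176, 0.0209 and 0.0232, and 251 genes lay within 0.1. With 4 libraries in 2 groups many genes share such a pattern, and these are a description only.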

How the data were processed

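RNA-seq was measured in 2 NaBu and 2 control libraries, grouped by sample titles. The submitters' processing notes name Bowtie2, RSEM and mm10. Their versions, the gene annotation and whether strand was kept are not given in the sources used. The authors' deposited files hold, per gene, RSEM expected counts, which are not normalized and were rounded to whole numbers before testing, FPKM values scaled to transcript length and mapped fragments, and a mean transcript length, per the file headers. Genes a library's file does not list were set to 0. The FPKM values of the deposited series table and sample files differed by at most 0.0.

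Differences were tested in R 4.3.3 with edgeR 4.0.16 (TMM factors 1.035, 1.0335, 0.968 and 0.9658 for NaBu 1, NaBu 2, control 1 and control 2; filterByExpr; glmQLFit and glmQLFTest with group as the sole term, NaBu over control; Benjamini-Hochberg over 12943 genes, called at 0.05) and checked on simulated counts. The SE of a log2 fold change is its size over the root of the F statistic. The spread behind each test was partly shared over genes, with 8.25 prior beside 2 residual degrees of freedom. With depths of 19857701 to 20548571 counts, genes with few counts carry the widest errors; zero-count limits cover counting error only. Coordinates and promoters come from RefSeq on GRCm38.p6, which is mm10, and transcripts and overlaps from GENCODE.

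The members and lists were chosen with earlier results of these data known. One B cell marker and the sum of its list are not reported here. Named genes are the members and up to 4 called genes per list by size of change at 1 FPKM or more. Also named are 6 genes chosen by name, the nearest patterns, and genes of the interval and neighbours at 1 FPKM or more. *Fcer1g*, *Klri1*, *Klri2*, *H60a*, *Raet1b* and *Raet1c* were chosen after their values were seen. So were the cell type markers other than *Ncr1* and the genes of the closing observations. Alternatives were other scalings and filters, limma 3.58.1 on log2(FPKM + 1) and log2(FPKM + 0.1), limma-voom, DESeq2 1.42.0, glmTreat at a fold of 1.5, a replicate block, summed *Klrc* genes, and leaving out each library.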

Additional observations from a re-analysis of the deposited data

How the results depend on the processing

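No gene of the 7 changed direction under any alternative that gave it a value. *Klrb1c* and *Klrg1* kept their call under each of theirs, 15 and 14. With a fold of 1.5 as the null (glmTreat), 3779 genes passed in place of 8884, and the calls of *Klrc1* (0.46), the summed *Klrc* genes (0.48), *Klrc2* (0.74), *Klrd1* (-0.31) and *Klre1* (-0.52, log2 fold changes) were lost. DESeq2 lost *Klrc2* (0.74) and *Klre1* (-0.52). *Klrd1* was lost with limma on log2(FPKM + 1) with and without the FPKM filter (-0.21 each) and on log2(FPKM + 0.1) (-0.21). *Klre1* was lost on library totals (-0.42), with no filter on low counts (-0.54) and with limma on log2(FPKM + 1) without a filter (-0.34). *Klrk1* gained a call on library totals (0.20), at 5 CPM in 2 libraries (0.16), and with limma on log2(FPKM + 1) and log2(FPKM + 0.1) (0.22 each). The cause of these differences was not tested. Leaving out 1 library gave -0.44 to -0.19 for *Klrd1*, -0.67 to -0.36 for *Klre1* and 0.0031 to 0.20 for *Klrk1*. Such a fit leaves 1 lone library in a group, so its calls rest on the spread of the other group. At 5 CPM in 2 libraries *Klrg1*, *Klre1* and *Klrc2* were not tested.

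The labels do not say that a replicate number pairs libraries, and the deviations of NaBu 1 and control 1 from their group means correlated at -0.0306 over genes. With the replicate number as a block 8853 genes were called and no call of the 7 genes changed. Depth limits *Klrg1*, *Klrc2* and *Klre1*, which had 15 to 103 counts per library.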

Other observations

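Further lectin-like receptor genes changed, most of them at low levels. The Ly49 family genes *Klra7* and *Klra5* fell, to 1.29 and 1.34 FPKM in NaBu against 2.53 and 2.97 in control, and to 1.59 and 1.32 against 2.63 and 2.26 (log2 fold changes -1.16 ± 0.24 and -0.84 ± 0.24, adjusted p = 0.00135 and 0.00932 by edgeR). *Klra2*, of the same family, rose to 0.54 and 0.57 FPKM against 0.06 and 0.16, on 39.2 and 8.34 counts per group. *Klrg2*, a relative of *Klrg1* that lies elsewhere on chromosome 6, had 40 counts over the NaBu libraries and 2 over the controls (log2 fold change 4.11 ± 0.57, adjusted p = 9.02e-05 by edgeR), at 0.46 FPKM or below in every library. *Clec2d*, which encodes a ligand of the inhibitory receptor NKR-P1B, fell to 22.3 and 23.1 FPKM in NaBu against 33.3 and 30.4 in control.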
